A study of Mus musculus with 4 samples.

Results

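The genes described here are Cdk1, Top2a, Mcm2, Mcm3, Mcm5 and Mcm6, whose products copy the genome and carry the cell through mitosis. They were taken by gene symbol, and 6 of 6 had a row among the 5282 genes of the table that the study's authors deposited. RNA was sequenced from dissected corpus callosum, a white matter tract, together with cortex, of mice at postnatal day 15. The altered group is labelled Pdgfra-creER;SmoM2 and is called SmoM2 below. It carries an activated Smoothened, which relays the hedgehog signal from the cell membrane, and a tamoxifen-inducible recombinase driven by Pdgfra, a gene of oligodendrocyte precursors and of fibroblasts. The controls are labelled wild type (WT), and the labels do not say whether they carry either allele. Both groups received tamoxifen from postnatal day 5 to 7, and each has 2 samples. The labels do not say whether these are separate animals, so the p-values measure only the spread between these samples, which may be technical.

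A cell that will divide first loads the MCM helicase, a ring of the subunits MCM2 to MCM7, onto origins of replication during G1. The ring unwinds DNA ahead of the polymerases in S phase. CDK1, bound to cyclin A or cyclin B, then drives entry into mitosis, and topoisomerase II alpha, the product of Top2a, untangles the sister chromatids so that they can be condensed and pulled apart. Transcripts of these genes fall to low levels in cells that have left the cycle. In the postnatal white matter the oligodendrocyte precursor is a major dividing cell, and endothelial cells, microglia and neuroblasts also divide at this age.

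Cell cycle genes are known to be switched on in 2 waves, and the promoters of the 6 genes are shown because they hold the letters associated with each wave. E2F factors act on genes of DNA replication through cores, read here as TTCCCGC or TTGGCGC or TTCGCGC or TTGCCGC. Genes of G2 and mitosis often carry CCAAT boxes together with a cell cycle homology region (CHR), read here as TTTGAA or TTCGAA. The search covered both strands of the 300 bases from 250 before to 50 after the RefSeq start (GRCm38.p6), and 6 of 6 genes matched an entry. The 250 bases before the start are printed for the kinase, the topoisomerase and 2 helicase subunits, 5′ to 3′ on the gene's strand, with every match to any of the 3 motifs in capitals.
Cdk1 (chr10:69352913-69353162, minus strand): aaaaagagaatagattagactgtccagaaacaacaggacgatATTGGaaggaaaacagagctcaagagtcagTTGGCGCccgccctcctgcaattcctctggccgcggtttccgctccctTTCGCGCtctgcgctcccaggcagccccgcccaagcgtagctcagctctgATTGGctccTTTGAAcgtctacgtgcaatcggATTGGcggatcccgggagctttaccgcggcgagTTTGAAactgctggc
Top2a (chr11:99024190-99024439, minus strand): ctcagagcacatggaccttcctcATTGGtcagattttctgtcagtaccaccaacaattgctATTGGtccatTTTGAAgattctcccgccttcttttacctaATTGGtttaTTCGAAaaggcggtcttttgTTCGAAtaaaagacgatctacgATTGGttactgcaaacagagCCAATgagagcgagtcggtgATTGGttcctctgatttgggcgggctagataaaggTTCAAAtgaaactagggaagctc
Mcm5 (chr8:75109259-75109508, plus strand): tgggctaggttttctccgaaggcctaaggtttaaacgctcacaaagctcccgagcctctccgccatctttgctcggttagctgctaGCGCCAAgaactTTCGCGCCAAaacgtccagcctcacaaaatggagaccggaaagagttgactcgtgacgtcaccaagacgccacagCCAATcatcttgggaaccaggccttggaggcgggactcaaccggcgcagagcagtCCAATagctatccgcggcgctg
Mcm6 (chr1:128359706-128359955, minus strand): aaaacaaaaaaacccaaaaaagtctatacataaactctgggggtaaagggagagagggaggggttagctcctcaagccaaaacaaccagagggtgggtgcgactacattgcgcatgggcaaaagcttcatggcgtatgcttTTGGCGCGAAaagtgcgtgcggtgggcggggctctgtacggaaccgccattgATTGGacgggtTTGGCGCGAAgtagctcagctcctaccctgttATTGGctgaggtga
In the 300-base windows, Cdk1 held matches of all 3 kinds, with 2 E2F cores, 2 CHR matches and 3 CCAAT boxes. Top2a held 6 CCAAT boxes and 4 CHR matches and no E2F core. Mcm5 held 3 E2F cores and 3 CCAAT boxes, and Mcm6 held 5 E2F cores and 2 CCAAT boxes, neither with a CHR match. Mcm3 held 3 E2F cores, all after the start, and 3 CCAAT boxes, whereas Mcm2 held 1 CHR match and 1 CCAAT box and no E2F core. E2F cores on opposite strands overlap one another at several places in Mcm3, Mcm5 and Mcm6, and TTCGAA reads the same on both strands and was counted once per position. Of 32851 promoters of the same length, 9.57% held an E2F core, 19.2% a CHR match and 37.4% a CCAAT box. These matches are descriptions of sequence and were not tested as sites of binding.

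**Figure D1:**
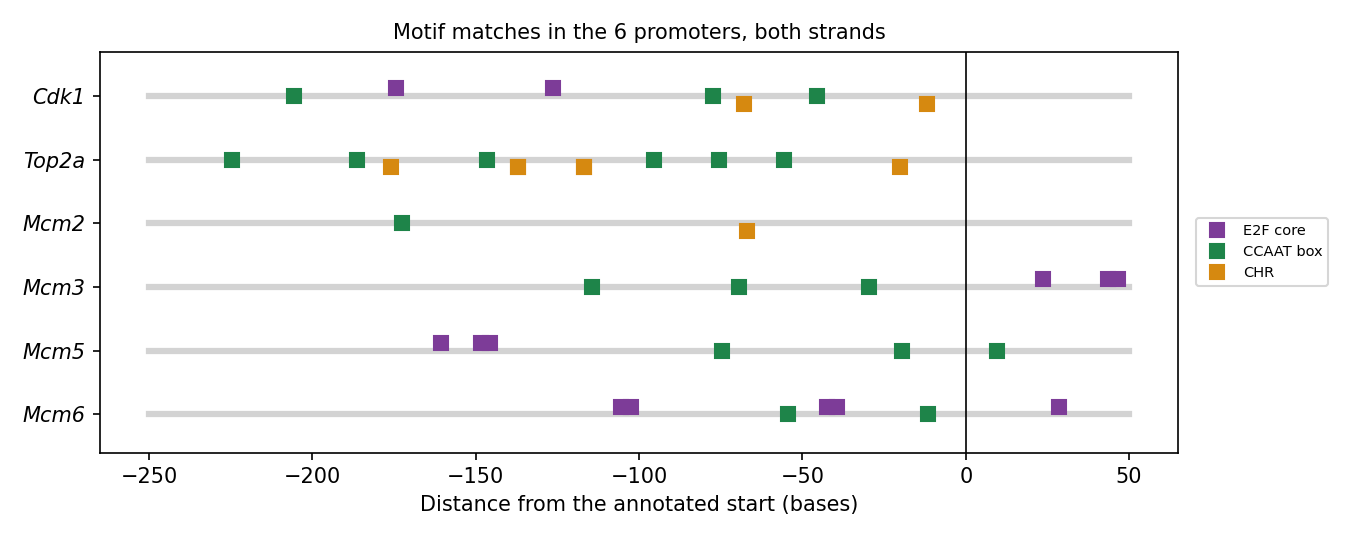
Position of each motif match in the 6 promoter windows, as bases from the RefSeq start (0, vertical line); each square is 1 match and each row 1 gene. E2F cores lie in Cdk1, Mcm3, Mcm5 and Mcm6, and CHR matches lie in Cdk1, Top2a and Mcm2.

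The table gives each gene a level per sample, and it does not name the unit (TPM or FPKM, for example) or state that levels were divided by gene length. Depth is unknown, since the table holds no counts, and the listed levels summed to between 469062 and 512833 per sample. The highest unadjusted p in the table is 0.049997, so each of the 6 genes was listed because of its difference on these same samples. A gene is said to have risen or fallen where the authors' deposited table has an adjusted p of 0.05 or less, which held for 3.45% of the 57010 tests that the adjusted values imply and for 37.3% of the listed genes. Smo, the gene altered by design, read 10.73 and 10.96 in SmoM2 against 7.12 and 5.75 in WT. All 11 markers of mature oligodendrocytes had a row and were above 0 in every sample, and 4 of 10 markers of cortical excitatory neurons had one.

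Cdk1 rose in SmoM2, and it was the single member of the 6 that did. SmoM2 replicates 1 and 2 had levels of 9.78 and 14.77, and the WT replicates 5.62 and 5.60. The WT samples were nearly identical and both lay below the lower SmoM2 sample, while the gap within SmoM2 was wider than the gap between its lower sample and WT. The SmoM2 mean of 12.3 ± 3.53 was 2.19 times the WT mean of 5.61 ± 0.0141 (SD, n = 2 each). The log2 fold change, 1.08, had an adjusted p-value of 0.0221 by the authors' deposited table. There 21.3% of the listed genes, and 1.97% of the 57010 tests, were called and higher, so 1 of 6 members is no larger a share than among the listed genes. Cdk1 (ENSMUSG00000019942) is a protein-coding gene on the minus strand of chromosome 10, from 69335146 to 69352938 (GRCm38), and GENCODE M21 places no other gene over it.

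Top2a did not pass, with both SmoM2 samples above WT. Its level was 4.75 and 3.81 in SmoM2 against 2.68 and 1.77 in WT, without overlap between the groups. The means were 4.28 ± 0.665 and 2.23 ± 0.643 (SD, n = 2 each), and the authors' deposited table gives 0.63 as its log2 fold change (adjusted p = 0.118). The SmoM2 sample with the higher Cdk1, replicate 2, had the lower Top2a. The ratio of Cdk1 to Top2a was 2.06 and 3.88 in SmoM2 and 2.10 and 3.16 in WT, overlapping between the groups. Top2a (ENSMUSG00000020914) lies on the minus strand of chromosome 11, from 98992943 to 99024189, and 2 annotated snoRNA genes lie within it.

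The helicase subunits were higher on average and none passed. Mcm2, a subunit of the gate through which DNA enters the ring, was at 3.57 and 3.76 in SmoM2 and 2.82 and 2.09 in WT. Mcm5, its partner at that gate, was at 5.80 and 7.32 in SmoM2 and 4.31 and 4.72 in WT. Mcm6, a subunit near MCM2 in the ring, was at 9.10 and 10.63 in SmoM2 and 8.17 and 6.11 in WT. In each of these 3 genes both SmoM2 samples lay above both WT samples. Mcm3 was at 4.98 and 4.16 in SmoM2 and 2.62 and 5.40 in WT, and here the highest sample of all 4 was WT replicate 2 and the lowest was WT replicate 1. The 2 other subunits of the ring, Mcm4 and Mcm7, had no row and were not analysed here.

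In the authors' deposited table the log2 fold changes of the subunits were 0.49 for Mcm2, 0.66 for Mcm3, 0.41 for Mcm5 and 0.38 for Mcm6, with adjusted p-values of 0.431, 0.128, 0.523 and 0.338. Mcm3 thus has the largest authors' value of the 4 while the ratio of its mean levels, 1.14, is the smallest. The other ratios of mean levels were 1.49 for Mcm2, 1.45 for Mcm5 and 1.38 for Mcm6. The sources used here do not give how the authors' fold changes were made from the reads. Mcm2 (ENSMUSG00000002870) lies on chromosome 6, 88883474 to 88898780, and Mcm5 (ENSMUSG00000005410) on chromosome 8, 75109569 to 75128439. Mcm3 (ENSMUSG00000041859) and Mcm6 (ENSMUSG00000026355) both lie on chromosome 1, at 20802968 to 20820312 and at 128331590 to 128359664.

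**Figure D2:**
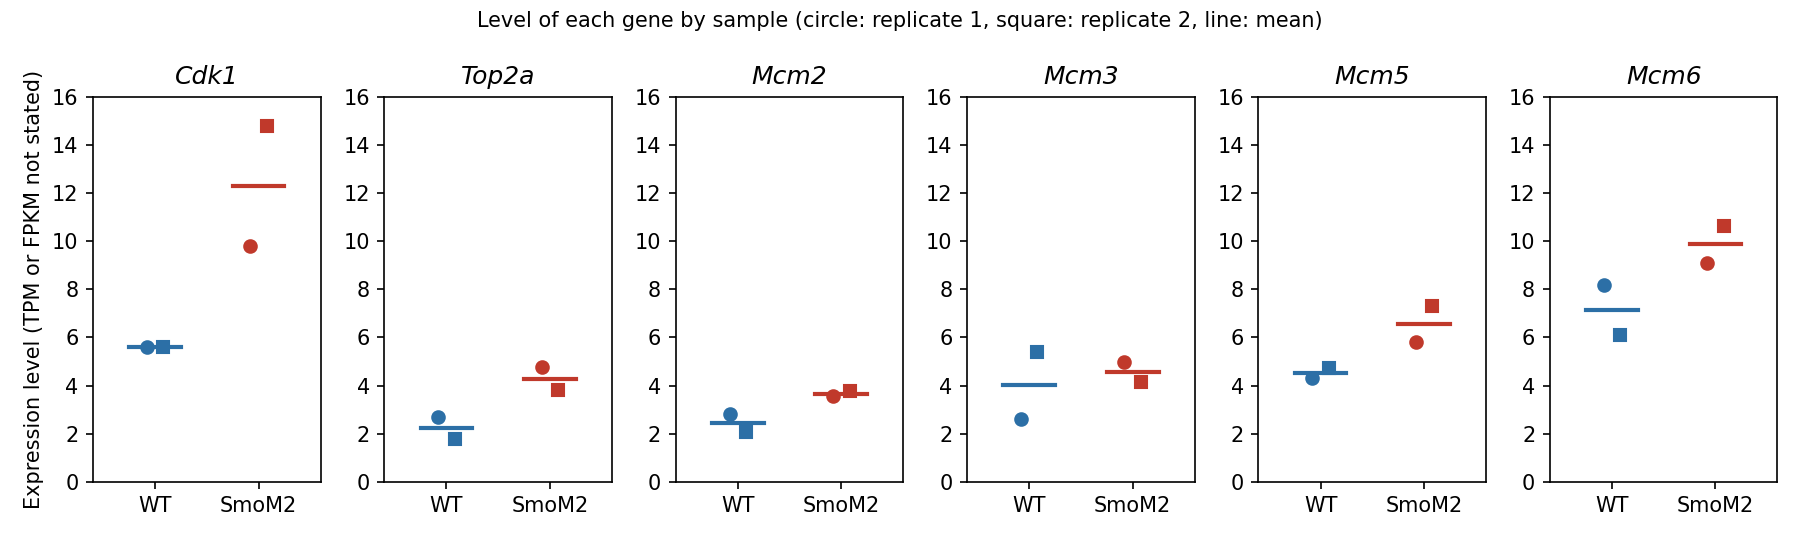
Level of each of the 6 genes (vertical axis, TPM or FPKM not stated, from 0) in the 2 WT and 2 SmoM2 samples; circles are replicate 1, squares replicate 2 and lines the means. The groups are apart in 5 genes, widest in Cdk1 (5.60 and 5.62 against 9.78 and 14.77), and overlap in Mcm3.

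Both SmoM2 levels exceeded both WT levels in 5 of the 6 genes, beside 49.5% of all listed genes. All 6 had a positive log2 fold change in the authors' deposited table, beside 53.2% of listed genes, with a median of 0.56 against 0.23 over all listed genes and 0.46 over the listed genes that were higher. The genes were chosen with these directions known, so the counts describe the members and support nothing. With 2 samples against 2 an exact two-sided permutation test cannot go below p = 0.333. Differences were therefore also fitted by limma on log2(level + 1) over the 4845 listed genes whose mean level was 1 or more. All of these were listed for their difference on the same samples. The intervals and p-values of the fit therefore describe the listed genes and are not independent support.

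The log2 difference from limma was largest for the kinase and smallest for the subunit whose groups overlapped. It was 0.98 ± 0.21 (SE) for Cdk1, with a 95% interval from 0.46 to 1.50, and 0.72 ± 0.24 for Top2a, from 0.15 to 1.29. Mcm2, Mcm5 and Mcm6 were close together at 0.44 ± 0.21, 0.45 ± 0.18 and 0.42 ± 0.19, and their intervals reached just below 0. The interval of Mcm3, at 0.21 ± 0.30, ran from -0.53 to 0.94. With limma p-values adjusted over 57010 tests none of the 6 passed, and the adjusted p of Cdk1 was 0.356. The same fit passed 0.124% of the listed genes fitted. Before adjustment 2 of the 6, Cdk1 and Top2a, had a limma p under 0.05. So did 2687 of the 4845 genes fitted, and the members' share is no larger than that.

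The listed genes as a whole were shifted upward in SmoM2 by this measure, and the helicase subunits lay near that shift. The median log2 difference of the fitted genes was 0.25. Relative to it the difference was 0.73 for Cdk1, 0.47 for Top2a, 0.19 for Mcm2, 0.20 for Mcm5, 0.17 for Mcm6 and -0.04 for Mcm3. Quantile normalization lowered the median by 0.126 and left Cdk1 0.74 and Top2a 0.41 above it, with Mcm3 at -0.07. No member's own log2 difference changed sign under quantile normalization or with equal sample medians.

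Single samples bore on the smaller differences. The limma log2 difference of Mcm3 turned to -0.20 without WT replicate 1 and was 0.62 without WT replicate 2. Without WT replicate 2 that of Mcm6 went from 0.42 to 0.24 and that of Mcm2 from 0.44 to 0.29. Cdk1 stayed between 0.71, without SmoM2 replicate 2, and 1.25, without SmoM2 replicate 1, and Top2a between 0.52 and 0.92.

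**Figure D3:**
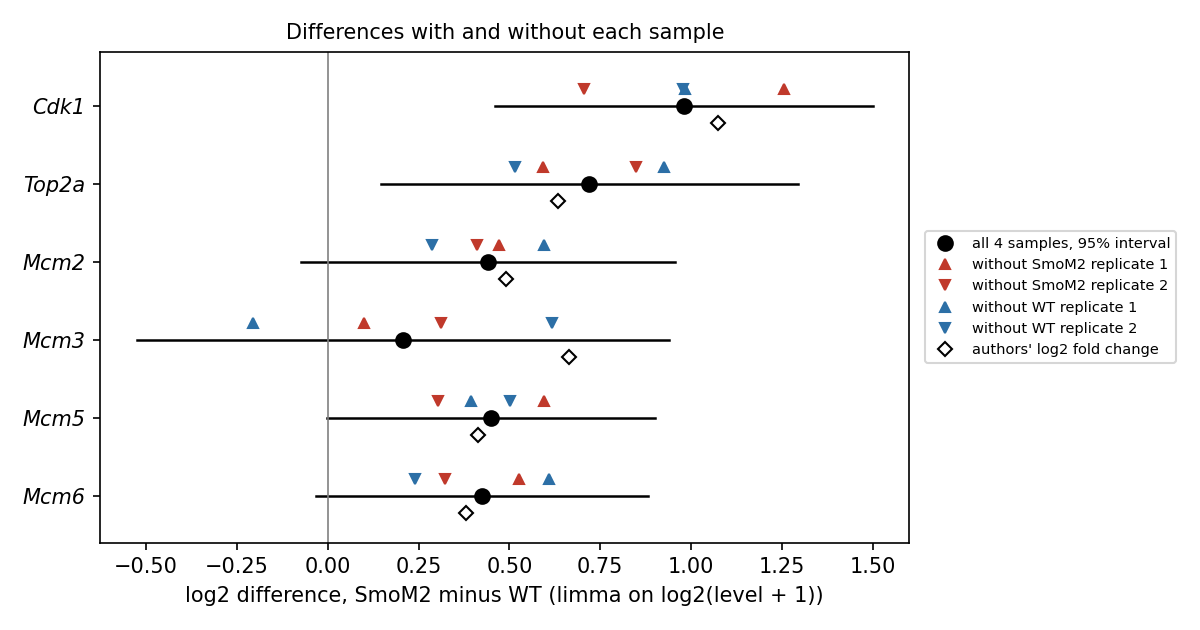
Log2 difference, SmoM2 minus WT, of each gene (horizontal axis, limma on log2(level + 1)); black points with lines are all 4 samples with the 95% interval, triangles leave out 1 sample each and open diamonds are the authors' log2 fold changes. Cdk1 stays between 0.71 and 1.25, and Mcm3 falls to -0.20 without WT replicate 1.

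An order of the genes within a sample holds only if levels were divided by gene length, which was not tested. As deposited, Mcm6 had the highest level of the 6 in both WT samples and Cdk1 in both SmoM2 samples. The ratio of the Cdk1 level to the Mcm6 level was 0.688 and 0.917 in WT and 1.07 and 1.39 in SmoM2, higher in both SmoM2 samples than in either WT sample, although the SDs of their SmoM2 levels overlap (12.3 ± 3.53 and 9.87 ± 1.08). Within the helicase the ratio of Mcm6 to Mcm2 was 2.55 and 2.83 in SmoM2 and 2.90 and 2.92 in WT. Mcm5 was above Mcm2 in all 4 samples. Mcm2, Mcm3 and Top2a held the lowest 3 places in SmoM2 replicate 1, SmoM2 replicate 2 and WT replicate 1, and in WT replicate 2, where Mcm3 lay above Mcm5, the lowest 3 were Mcm5, Mcm2 and Top2a. The SDs of Mcm3 and Top2a overlapped in SmoM2, at 4.57 ± 0.580 and 4.28 ± 0.665 (SD, n = 2 each). Those of Mcm2 and Top2a overlapped in WT, at 2.46 ± 0.516 and 2.23 ± 0.643. These genes were read in the same samples, so the SDs do not measure the difference between them. Within samples Mcm3 lay above Top2a in both SmoM2 samples, and Mcm2 above Top2a in both WT samples.

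Beyond the 6 genes, 12 lists of 209 cell cycle genes were read from the authors' deposited table. In it 54 genes had a row and 155 had none. The table stops at an unadjusted p of 0.049997, so a gene without a row had a higher p or was not tested. Of all tests implied by the authors' adjusted values, 9.265% had a row. The counts of higher and lower genes here and below therefore describe the genes with a row, not the whole lists. Of the 54 genes, 36 were higher and 18 lower in SmoM2. Among them 4 rose and 4 fell, so that 14.8% passed beside 37.3% of all listed genes. Over the lists of mitotic entry, kinetochore and spindle combined, 14 of 56 genes had a row, 13 being higher, with a median log2 fold change of 0.86, and Cdk1 was the 1 gene that rose. The 2 other mitotic lists, of the checkpoint with the anaphase-promoting complex and of chromosome structure, had 7 higher and 2 lower and 3 higher and 2 lower. No difference between stages was tested.

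The partners of CDK1 with a row were higher without passing. Of 14 mitotic cyclins and entry kinases, 6 had a row, all 6 were higher and the groups of none overlapped. Among the 5282 listed genes 2808 were higher, and 2613 had both SmoM2 levels above both WT levels. Groups without overlap are thus usual for a listed gene that was higher. Ccnb1 and Ccnb2, the B-type cyclins that activate CDK1, had log2 fold changes of 0.89 and 0.77 by the authors' deposited table. The level of Ccnb2 was 2.86 and 2.38 in SmoM2 and 1.48 and 1.44 in WT, whereas that of Ccnb1 was 2.28 and 2.90 against 2.26 and 1.66, with one sample of each group nearly equal. Plk1, a kinase of mitotic entry, was at 2.22 and 2.13 against 1.09 and 1.36, and Cdc25b, the phosphatase that releases CDK1 from inhibition, at 5.12 and 5.78 against 3.38 and 3.58. Ccna2, the cyclin of S phase and G2, was at 3.31 and 2.40 against 1.90 and 1.77.

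Genes of the spindle and kinetochore with a row were low and mostly higher in SmoM2. Of 24 spindle and cytokinesis genes 6 had a row, and 5 were higher, none passing. Kif2c, a kinesin that takes microtubules apart at centromeres, came closest, with levels of 1.09 and 1.58 against 0.46 and 0.51 and an adjusted p-value of 0.0551 by the authors' deposited table. Anln, which encodes a scaffold of the cleavage furrow, was the 1 lower gene, at 2.44 and 2.53 against 3.04 and 3.75. Of 18 kinetochore and passenger genes Spc25 and Knl1 had a row, both higher and neither passing. Knl1 read 0.27 and 0.10 against 0.09 and 0.01, so the 1.67 that the authors' deposited table gives as its log2 fold change rests on levels near 0.

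The spindle checkpoint and the anaphase-promoting complex, the ubiquitin ligase that ends mitosis, had 9 of 21 genes in the table, 7 higher and 2 lower. Fzr1, which encodes the activator CDH1 that also holds the ligase active in G1 and in cells at rest, rose, at 65.51 and 71.01 against 43.87 and 48.47, with an adjusted p-value of 0.000204 by the authors' deposited table. Cdc27, a core subunit of the same ligase, fell, although its levels of 17.23 and 14.04 overlapped with those of WT at 17.09 and 21.26. The checkpoint kinase gene Bub1 was at 0.56 and 1.76 against 0.21 and 0.33, and Bub1b at 2.16 and 1.79 against 1.09 and 0.83, neither passing.

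Chromosome structure genes with a row were split. Of 21 genes 5 had a row and none passed. Mki67, whose product Ki-67 coats mitotic chromosomes and marks cycling cells, was at 1.27 and 0.75 in SmoM2 and 0.55 and 0.68 in WT, with 0.65 as its log2 fold change by the authors' deposited table. Top2a stands beside it at 0.63. The cohesin genes Smc3 and Stag2, which all cells use to hold chromatids and loops, were lower, at -0.26 and -0.24, and their groups overlapped.

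In the licensing list, which holds the MCM genes, 6 of 16 genes had a row. Besides the 4 MCM genes these were Orc2 and Orc4, subunits of the origin recognition complex that receives the helicase, and both fell. Orc4 was at 22.58 and 21.19 in SmoM2 and 25.42 and 29.04 in WT, and Orc2 at 10.26 and 11.94 against 16.31 and 18.67, with adjusted p-values of 0.00194 and 0.0434 in the authors' deposited table. None of the 4 MCM genes passed, and the difference between them and the 2 Orc genes was not tested. The loading factors Cdc6 and Cdt1 had no row.

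Replication fork genes were evenly divided, with 8 of 35 in the table, 4 higher and 4 lower. Tipin, a protector of stalled forks, fell with an adjusted p-value of 0.0201 by the authors' deposited table, but its levels were 33.31 and 20.04 against 25.66 and 57.73, so the groups overlapped and WT replicate 2 stood far above the rest. Pold1 and Pold2, subunits of DNA polymerase delta, were higher without passing, at log2 fold changes of 0.74 and 0.49. Pold1 resembled Mcm3 in its levels, at 3.04 and 3.40 against 1.78 and 3.89. Of 8 genes of deoxynucleotide synthesis, Tk1 had a row. It encodes the thymidine kinase of S phase and rose, at 3.86 and 4.51 against 1.89 and 0.71, with 1.32 as its log2 fold change (adjusted p = 0.0172, the authors' deposited table).

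Upstream of the members, Ccnd1 was the 1 gene called among the G1 cyclins, CDK inhibitors and E2F, pocket protein and MuvB genes. Ccnd1, the cyclin D1 gene and a hedgehog target, rose, at 23.53 and 22.17 in SmoM2 and 14.58 and 16.57 in WT. Ccne2, a cyclin of the step into S phase, was at 2.50 and 3.45 against 3.62 and 7.66 and did not pass. Of 8 CDK inhibitor genes 3 had a row and none passed, and the smallest p belonged to Cdkn2d, at 89.76 and 90.90 against 68.54 and 71.02. Of 19 genes of E2F, pocket protein and MuvB complexes 4 had a row, all 4 were lower and none passed. E2f6, a repressor of the family, had the lowest adjusted p at 0.0518 in the authors' deposited table, with levels of 16.52 and 13.47 against 19.62 and 16.30. In the list of the S-phase checkpoint and recombination, Brca1 was the 1 gene of 16 with a row, at 0.66 and 0.75 against 1.02 and 1.00, and did not pass.

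**Figure D4:**
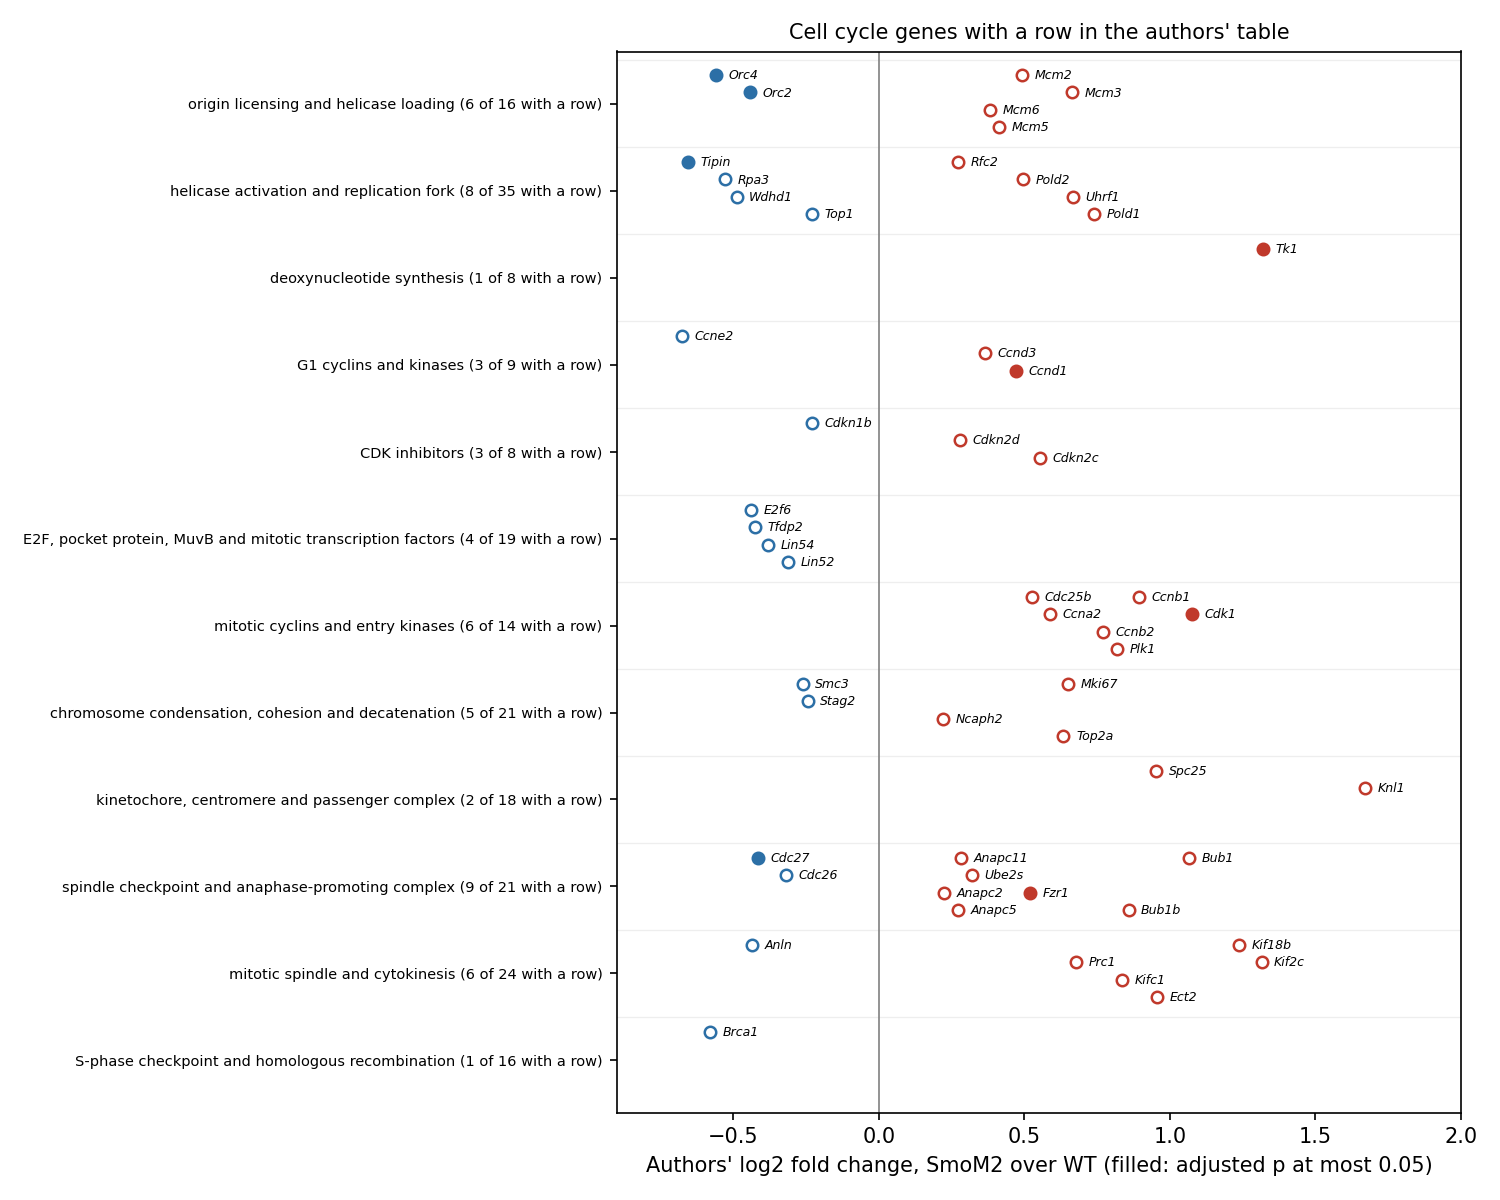
Authors' log2 fold change, SmoM2 over WT, of each cell cycle gene with a row (horizontal axis), by list; filled points have an adjusted p of at most 0.05, red is higher and blue lower in SmoM2. All 6 mitotic cyclin and entry kinase genes with a row lie right of 0. All 4 E2F, pocket protein and MuvB genes with a row lie left of it, and 8 of 54 genes are filled.

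Markers of several cell types that can divide, or that were carried with the tissue, had levels that differed between the groups. Of all listed genes 37.3% were called, 21.3% being higher and 16% lower. The marker lists are short, and their shares were not tested against these. In bulk RNA fewer cells of a type and less RNA per cell cannot be told apart. Oligodendrocyte precursor markers had 7 of 13 genes in the table, all 7 higher and 3 risen. Their summed level was 606 to 631 in SmoM2 and 458 to 476 in WT. Most of each sum was Cspg5, at 415 and 407 in SmoM2 and 317 and 306 in WT. Without it the sums were 216 and 199 against 159 and 152. Markers of neuroblasts and transit-amplifying progenitors had 8 of 13, all higher and 4 risen, with sums of 75.0 to 110 against 56.2 to 62.8. The highest of these sums belonged to SmoM2 replicate 1, which had the lower Cdk1 of the 2 SmoM2 samples and the higher Top2a.

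Microglia and macrophage markers had 6 of 10 genes in the table, 5 higher, with sums of 388 to 420 in SmoM2 and 307 to 310 in WT. Of these, C1qb and C1qc rose, and P2ry12, a defining gene of microglia, fell, with -0.48 as its log2 fold change and an adjusted p-value of 0.00187 by the authors' deposited table, though its groups overlapped by level. Leptomeningeal fibroblast markers had 9 of 10, all risen, with sums of 1889 to 1940 against 423 to 1050. Ptgds carried most of these sums, at 1641 and 1728 in SmoM2 and 933 and 313 in WT, and without it they were 248 and 213 against 117 and 110.3. Pericyte and smooth muscle markers had 5 of 9, all higher and 3 risen, with sums of 113 to 136 against 55.9 to 72.7. The sums of endothelial markers overlapped, at 191 to 271 in SmoM2 and 220 to 261 in WT, with called genes in both directions. Without Cldn5, the marker of highest level, they were apart, at 133 and 91.8 against 183 and 148. Of those sums Ly6c1 alone made up 74.2 and 47.5 in SmoM2 and 134 and 93.2 in WT. Cldn5, Cdh5 and Kdr rose and Pecam1 was higher without passing, whereas Slco1a4 and Ly6c1 fell, at log2 fold changes of -0.97 and -0.99 by the authors' deposited table. Markers of mature oligodendrocytes, cells that no longer divide, were lower in all 11 genes, 10 of them fallen, with sums of 1103 to 1197 against 2400 to 2484. No marker with a row in these 7 lists was at 0 in any sample, while Pdgfra and Sox10, of the precursor list, had no row. The part of these cell types in the levels of Cdk1, Top2a and the MCM genes was not tested.

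Samples also differed in genes of blood and choroid plexus. Erythroid markers fell in all 6 of 7 genes with a row, with sums of 65.6 to 120 in SmoM2 and 450 to 662 in WT. Choroid plexus markers were lower in all 6 of 8 with a row, 4 of them fallen, and their sums were 77.4 and 630 in SmoM2 replicates 1 and 2 and 1186 to 1222 in WT. Most of each sum was Ttr, and without it the sums were 6.14 and 11.96 against 19.8 and 23.8. Of 8 markers of immature cerebellar granule cells, a population that hedgehog signalling keeps dividing, Cbln1 and Etv1 had a row, and the defining marker Atoh1 had none. The sums overlapped at 49.9 to 53.1 against 51.1 to 51.4, but they joined opposite directions. Etv1 fell, at 23.12 and 27.17 in SmoM2 and 28.27 and 33.57 in WT. Cbln1 was higher without passing, at 26.80 and 25.97 in SmoM2 and 22.81 and 17.80 in WT. The part of blood and choroid plexus RNA in the members' levels was not tested.

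**Figure D5:**
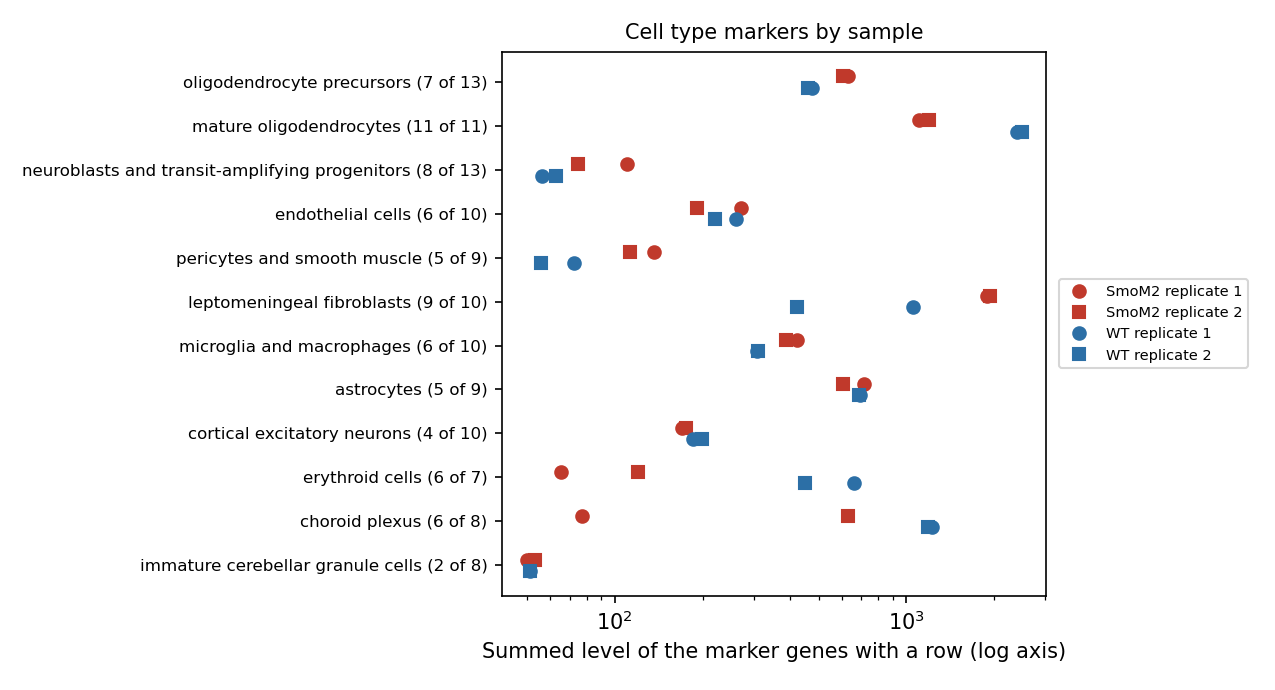
Summed level of the marker genes with a row (horizontal log axis) for each cell type list, by sample; red is SmoM2, blue is WT, circles are replicate 1 and squares replicate 2. Precursor sums are 606 to 631 in SmoM2 and 458 to 476 in WT, and mature oligodendrocyte sums are 1103 to 1197 and 2400 to 2484.

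The profiles of the 6 genes over the 4 samples were not close to one another as a set. Likeness was measured as the Euclidean distance between log2(level + 1) values after each gene's mean was taken away, among 4845 genes. The pair of members nearest to each other was Mcm2 and Mcm6, at a distance of 0.112, and Mcm2 was 23rd among the neighbours of Mcm6. Cdk1 was nearest to Cd74, at 0.0719, an invariant chain gene of antigen-presenting cells, then to Tfr2 and Tmem200b, and its nearest member, Mcm5, lay at 0.567. Top2a was nearest to Tmem140 at 0.0266 and to Lyl1 at 0.0748, and Mcm3 to Tap1 at 0.0957. Mcm5 was nearest to Rxfp3, at 0.0082, Mcm2 to Tpgs1, at 0.0151, and Mcm6 to Rrp9, at 0.0542, with Tmem119, a microglial gene, next but one at 0.0662. With 4 samples many genes share a profile by their number alone, and these distances are a description.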

How the data were processed

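RNA of pooled corpus callosum and cortex was made into Illumina TruSeq libraries from 1 ug of total RNA, per the labels' protocols. RSEM, DESeq2 and GRCm38.p6 are named without roles, per the submitters' processing notes; aligner, versions and strandedness are not given in the sources used here. The deposited table holds, per sample, a signal value with 2 decimals (the level), and the authors' mean levels, fold change as a ratio, log2 fold change, p-value and adjusted p-value. Columns were tied to samples by the series text. The authors' adjusted p equals p times 57010 over its rank for 5273 of 5282 genes, within 1e-06.

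Since the file holds levels, differences were fitted with limma 3.58.1 (R 4.3.3) with a mean-variance trend on log2(level + 1) for genes whose mean level was 1 or more. The added 1 understates the change of low genes. The p-values were adjusted over 57010 tests. Steps were tested on simulated data. Alternatives were other pseudocounts, scalings, filters, a replicate block and leaving out each sample. Members, gene lists and the rule for named genes (every called gene of a list, or else that of smallest p, and the 3 nearest profiles) were chosen with earlier results of these data known. Other genes were named, and marker sums given without Cspg5, Cldn5, Ptgds or Ttr, after their values were seen. Gene positions are from GENCODE M21 and promoters from RefSeq.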

Additional observations from a re-analysis of the deposited data

How the results depend on the processing

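Of 81 alternative values of the 6 log2 differences, 78 kept the sign and the side of the adjusted threshold. The filters, the trend, the replicate block and the narrower adjustment cannot move a log2 difference itself. Staying on the uncalled side was also easy, since the main fit passed 0.124% of the fitted genes. The count is therefore no measure of stability. Cdk1 passed by the authors' deposited log2 fold change, 1.08, where limma over 57010 tests did not. It also passed by limma adjusted over only the listed genes fitted, at 0.98 with an adjusted p of 0.0302. Under that narrower adjustment limma called 1 of the 6 genes, no larger a share than the 1619 of the 4845 fitted. Those genes were listed for their difference on the same samples, so passing there is not support. Over the alternatives with all 4 samples the adjusted p of Cdk1 ran from 0.0221 (the authors' deposited table) to 0.560 (limma without the trend). With a stricter adjusted p, 0.01, of the authors' deposited values 0 of the 6 passed, and the share of all listed genes that did was not counted. By limma over 57010 tests 0 of the 6 passed at 0.05, beside 0.124% of the genes fitted. All listed genes have an unadjusted p under 0.05 in the authors' deposited table, so for the 6 members that was fixed by the listing. Leaving out each sample in turn gave log2 differences of 0.71 to 1.25 for Cdk1, 0.52 to 0.92 for Top2a, 0.29 to 0.59 for Mcm2, -0.20 to 0.62 for Mcm3, 0.30 to 0.59 for Mcm5 and 0.24 to 0.61 for Mcm6, and Mcm3 was negative without WT replicate 1. The groups of 5 to 6 genes did not overlap then. With 1 sample in a group that condition is easier to meet, so the count cannot be set beside the 49.5% of listed genes found with all 4 samples. An arm with 1 sample is assumed to vary like the rest. The labels give both groups replicate numbers 1 and 2, but nothing says that a number marks a shared litter or day, and the within-group deviations of same-numbered samples had a correlation of -0.09 across 4845 genes; with the replicate block the log2 difference of Cdk1 was 0.98 with an adjusted p of 0.374 (limma), no member's call changed, and the genes called went from 6 to 20. With a minimum level of 5, Top2a, Mcm2 and Mcm3 could not be fitted. Over all fitted genes, limma called 6 in the main setting, 0 with quantile normalization, with no filter on low levels, without SmoM2 replicate 1, without SmoM2 replicate 2 and without WT replicate 2, 2 without WT replicate 1, 3 without the trend and 1619 with adjustment over the fitted genes. Depth is unknown, so levels under 1, such as those of Knl1 and Bub1, have no known counting error.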

Other observations

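Some cell cycle genes, singled out after their values were seen, have an authors' log2 fold change well apart from the log2 ratio of their mean levels. For Pold1 the values were 0.74 in the authors' deposited table and 0.18 from the levels. For Mcm3 they were 0.66 and 0.19, for Ccnb1 0.89 and 0.40, and for Cdkn2c, an inhibitor of the kinases of G1, 0.55 and 0.12. The gap ran the other way for some, such as the member Top2a, at 0.63 in the authors' deposited table and 0.94 from the levels. Bub1, at low levels, had 1.06 and 2.10. Cdk1 differed little, at 1.08 and 1.13. Over the 4845 genes whose mean level was 1 or more the median of the authors' value minus the level value was -0.08. The genes Pold1, Mcm3 and Cdkn2c also share overlapping groups by level.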
